A study of Homo sapiens with 54 samples.

Results

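The genes described here make serine, glycine and asparagine or carry the amino acids that feed these routes. They were chosen by name as 10 of the 27978 genes counted: PHGDH, PSAT1 and PSPH of serine synthesis, SHMT1, SHMT2, MTHFD2 and ALDH1L2 of the folate cycle, the asparagine synthetase ASNS, and SLC7A5 and SLC3A2, the chains of an amino acid transporter. The rule uses no measured value, but earlier results of these data were known when it was made. RNA of MDA-MB-231 cells, an established human triple-negative breast cancer line, was sequenced in 54 libraries, 3 in each of 18 groups. Cells were left untreated, or were given 2 mg/ml of Compound Kushen Injection (CKI), an extract of medicinal plant roots, or a mixture rebuilt from its fractions at the equivalent dose. Setting mixtures that differ by named compounds beside one another asks which compounds the response depends on.

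In batch 1, cells were sampled after 24 and 48 h. Besides untreated cells and CKI, the treatments were CKI without oxymatrine and oxysophocarpine (N-OmtOspc, called N_2 in the labels), CKI without these and macrozamin (N-MacOmtOspc, N_3), oxymatrine with oxysophocarpine alone (OmtOspc, OO), and those with macrozamin (MacOmtOspc, MOO). In batch 2, cells were sampled after 48 h only, untreated or with CKI or with CKI lacking 1 compound: macrozamin (N-Mac), N-methylcytisine (N-Nme), oxymatrine (N-Omt) or trifolirhizin (N-Tri). The mixtures were fractionated and put together again while CKI was not, and none of the 18 groups is CKI rebuilt with every compound. A difference between a mixture and CKI therefore cannot be told apart from the effect of fractionation. The labels do not say whether untreated cells were given a vehicle, and all groups are of 1 cell line.

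PHGDH, PSAT1 and PSPH turn an intermediate of glycolysis into serine in sequence. The serine hydroxymethyltransferases, cytosolic SHMT1 and mitochondrial SHMT2, split serine into glycine and a one-carbon unit on folate, and MTHFD2 and ALDH1L2 oxidise that unit in the mitochondria. ASNS makes asparagine from aspartate and glutamine, and SLC3A2 is the heavy chain that brings the light chain SLC7A5 to the cell surface, where the pair exchanges large neutral amino acids. Several of these genes are textbook targets of ATF4, the transcription factor made when cells lack amino acids or when their protein folding is disturbed.

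ATF4 acts on such genes with C/EBP partners through a composite element, for which TGATGNAA was searched on both strands of RefSeq promoters of GRCh38.p14, from 250 bases before to 50 bases after each start. 7 of the 10 genes were in the promoter table, with 10 promoters, while PSPH, SHMT2 and ALDH1L2 were not. The letters occurred in 2 of these 10 promoters, and in 1270 of all 35116 (3.62%). The stretches that hold them, in ASNS and SLC3A2, are shown with the match in capitals. The promoters of PHGDH, PSAT1, MTHFD2, SHMT1 and SLC7A5 held no match. Of these, PHGDH, PSAT1 and MTHFD2 also rose with every mixture at 48 h. In a fit of all 54 libraries, however, PHGDH was not called with N-Mac, N-Nme or N-Tri. Whether the rises depend on these letters was not tested. The ASNS stretch is chr7:97872428-97872527 on the minus strand, where the match begins 68 bases before the start. The SLC3A2 stretch is chr11:62881725-62881748 on the plus strand, in 1 of 3 promoters of that gene, where the match is on the opposite strand and begins at the 38th base transcribed. A match is a description of letters and not a site of binding, and the lack of a match does not exclude a site.
ASNS: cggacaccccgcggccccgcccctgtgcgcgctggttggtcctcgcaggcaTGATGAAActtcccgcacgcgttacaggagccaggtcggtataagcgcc
SLC3A2: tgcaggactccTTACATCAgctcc

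Libraries held 17673537 to 26138924 counts. The line's markers VIM and CD44 lay at 490 to 1562 and 328 to 671 CPM (counts scaled to a common library size), ESR1 and PGR had at most 8 and 2 counts in a library, and EPCAM was low but present, at 6.25 to 27.3 CPM. The least alike libraries within their groups were at 24 h: the mean Pearson r with the others of the group, across genes, was 0.936 for N-MacOmtOspc replicate 2, 0.954 for OmtOspc replicate 2 and 0.956 for CKI replicate 1, the 3 libraries whose labels lack the sample number the others carry, and 0.953 for OmtOspc replicate 1. The counts of N-MacOmtOspc replicate 2 stand in a column whose name carries an added letter A after the name its label gives, and it was assigned because no other label holds that name. In bulk RNA, fewer cells of a kind and less RNA per cell cannot be told apart.

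Whole CKI lowered most of these genes at 48 h, while each rebuilt mixture raised some and lowered others. At 48 h, the quasi-likelihood test of edgeR, with p-values adjusted by the Benjamini-Hochberg method over all genes tested and called when under 0.05, gave 7 of 10 members lower and 0 higher with CKI in batch 1, where 27.0% of all genes were lower and 27.0% higher. In batch 2 it gave 8 lower and 0 higher, where 34.2% of all genes were lower and 32.3% higher. With both batches and a batch term it gave 8 of 10 lower and 0 higher, where 34.4% were lower and 36.3% higher. The median log2 fold change of the members was -0.53, beside 0.01 over all genes tested.

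The 8 mixtures given at 48 h each raised 5 to 7 members and lowered 1 to 4. In batch 1, N-OmtOspc raised 5 (38.3% of all genes) and lowered 3 (38.3%), and N-MacOmtOspc raised 5 (35.8%) and lowered 1 (35.3%). OmtOspc raised 7 (29.1%) and lowered 1 (28.7%), and MacOmtOspc raised 7 (25.7%) and lowered 1 (25.5%). The members that moved with the small mixtures of 2 or 3 compounds were therefore mostly higher, while all genes were split about evenly. In batch 2, N-Mac raised 5 (36.9%) and lowered 4 (35.4%), N-Nme raised 5 (35.9%) and lowered 3 (35.4%). N-Omt raised 5 (38.4%) and lowered 4 (39.9%), and N-Tri raised 5 (34.8%) and lowered 3 (37.4%). With the mixtures other than OmtOspc and MacOmtOspc, 5 of 10 members were higher beside 34.8% to 38.4% of all genes. These counts of higher members alone do not set the members apart. The median log2 fold change of the members with the batch 2 mixtures was 0.05 to 0.18. The raised members included ASNS, PHGDH, PSAT1, MTHFD2 and SLC3A2 with all 8 mixtures. In a fit of all 54 libraries, PHGDH with N-Mac, N-Nme and N-Tri and SLC3A2 with N-Mac were not called. Each treated group of a time and batch was set against the same 3 untreated libraries.

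At 24 h, 9 members could be tested, since ALDH1L2 had too few counts. CKI lowered 3 (14.8% of all genes) and raised 0 (15.3%). N-OmtOspc raised 4 (31.1%) and lowered 1 (30.9%), and N-MacOmtOspc raised 7 (23.2%) and lowered 1 (21.8%). OmtOspc raised 5 (9.03%) and lowered 1 (7.72%), and MacOmtOspc raised 5 (5.61%) and lowered 0 (4.84%). Scaled by library totals alone, N-OmtOspc at 24 h raised 2 and lowered 4, with the median of all genes moved by -0.31 on the log2 scale. Why these calls changed was not tested.

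**Figure D1:**
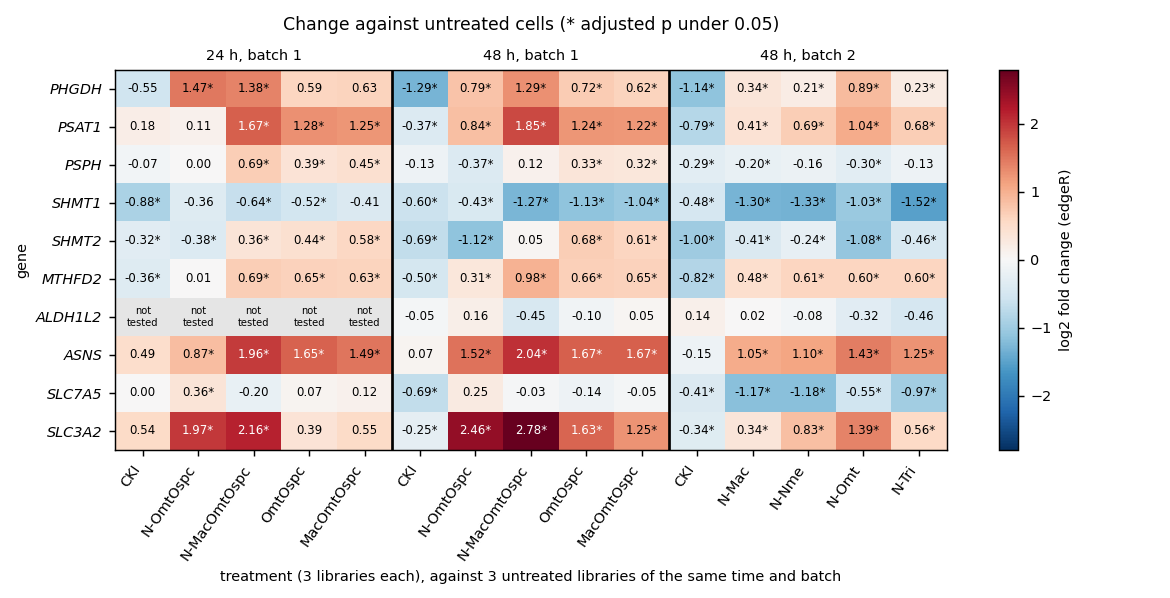
Log2 fold change of each gene (rows) with each treatment (columns) against the 3 untreated libraries of the same time and batch, with stars at adjusted p under 0.05 and grey where the gene was not tested. The CKI columns at 48 h are mostly blue, the rows of ASNS, PSAT1 and SLC3A2 are mostly red, and the row of SHMT1 is blue throughout.

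PHGDH, the first enzyme of serine synthesis, moved in opposite directions with CKI and with the mixtures. At 48 h in batch 1 it lay at 12.7, 13.8 and 14.0 CPM in untreated cells, at 5.60, 5.55 and 5.36 CPM with CKI and at 29.9, 38.4 and 31.1 CPM with N-MacOmtOspc. The 3 groups did not overlap. Against untreated cells, the log2 fold change was -1.29 (SE 0.10, adjusted p = 8.2e-10 by edgeR) with CKI and 1.29 (SE 0.09, adjusted p = 1.9e-11) with N-MacOmtOspc. It rose by 0.79 with N-OmtOspc, 0.72 with OmtOspc and 0.62 with MacOmtOspc. In batch 2, PHGDH lay at 15.7, 12.8 and 18.2 CPM in untreated cells, at 6.91, 7.34 and 6.93 CPM with CKI and at 30.9, 27.0 and 28.6 CPM with N-Omt. The change was -1.14 (SE 0.11, adjusted p = 6.2e-11) with CKI and 0.89 (SE 0.09, adjusted p = 1.1e-10) with N-Omt, and 0.34 with N-Mac. PHGDH in the libraries of N-Mac, N-Nme and N-Tri overlapped the untreated ones, and none of these rises was called in the fit of all 54 libraries. The smaller rises with N-Nme (0.21, adjusted p = 0.0463) and N-Tri (0.23, adjusted p = 0.0294) rested on single libraries: without untreated replicate 2 of batch 2 they were 0.09 and 0.11 and not called, and leaving out any of 3 other libraries also ended each call. At 24 h, N-OmtOspc raised PHGDH by 1.47 (SE 0.22) and N-MacOmtOspc by 1.38 (SE 0.22). The 3 N-OmtOspc libraries were spread widely, at 23.0, 19.4 and 40.6 CPM, beside 10.1 to 10.5 CPM untreated. PHGDH was at -0.55 with CKI, 0.59 with OmtOspc and 0.63 with MacOmtOspc at 24 h, not called, but all 3 were called in the fits of all 54 or of only the 6 libraries compared.

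PSAT1, the second enzyme of the route, followed PHGDH at 48 h. In batch 1 it lay at 92.2, 86.5 and 89.6 CPM in untreated cells, at 71.6, 65.4 and 69.9 CPM with CKI and at 321, 305 and 342 CPM with N-MacOmtOspc. All 3 CKI libraries were below and all 3 N-MacOmtOspc libraries above the untreated ones. These amount to log2 fold changes of -0.37 (SE 0.07, adjusted p = 6.5e-05 by edgeR) with CKI and 1.85 (SE 0.07, adjusted p = 1.7e-16) with N-MacOmtOspc. It was 0.84 with N-OmtOspc, 1.24 with OmtOspc and 1.22 with MacOmtOspc. In batch 2 the untreated level was higher, at 167, 140 and 196 CPM, and CKI took it to 95.4, 102 and 92.8 CPM, a change of -0.79 (SE 0.07, adjusted p = 9.4e-12). N-Omt raised it to 334, 350 and 349 CPM, a log2 change of 1.04 (SE 0.07), and the other mixtures by 0.41 to 0.69. At 24 h, PSAT1 already rose by 1.67 with N-MacOmtOspc, 1.28 with OmtOspc and 1.25 with MacOmtOspc. With CKI and N-OmtOspc at 24 h it was 0.18 and 0.11 on the log2 scale, neither called.

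PSPH, which releases serine in the last step, moved less. Its 54 libraries lay between 22.0 and 57.6 CPM. At 48 h it rose by 0.33 with OmtOspc and 0.32 with MacOmtOspc and fell by 0.37 with N-OmtOspc, 0.20 with N-Mac and 0.30 with N-Omt. With N-Nme and N-Tri it was -0.16 and -0.13, not called, but called without untreated replicate 2 of batch 2 (-0.24 and -0.21), and N-Nme also without its replicate 3 (-0.20). The call for N-Mac was lost without N-Mac replicate 3 (-0.13) or untreated replicate 3 of batch 2 (-0.09). CKI lowered it in batch 2 (-0.29, SE 0.08, adjusted p = 0.0012 by edgeR), while in batch 1 it was -0.13 and not called. At 24 h it rose by 0.69 with N-MacOmtOspc, where the libraries lay at 57.6, 56.3 and 53.3 CPM beside 34.3, 34.7 and 35.0 CPM untreated. The 24 h rises of 0.39 with OmtOspc and 0.45 with MacOmtOspc were not called without 5 and 3 of their 6 libraries in turn, with values of 0.35 to 0.40 and 0.42 to 0.45. Reads of near copies of PSPH elsewhere in the genome could have been counted for it or lost.

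SHMT1, the cytosolic enzyme, fell with all treatments at 48 h. In batch 2 it lay at 34.2, 35.4 and 32.1 CPM in untreated cells, at 25.7, 23.2 and 24.0 CPM with CKI and at 10.8, 12.7 and 12.6 CPM with N-Tri, with no overlap between the 3 groups. On the log2 scale the change was -0.48 (SE 0.07, adjusted p = 1.0e-06 by edgeR) with CKI and -1.52 (SE 0.08, adjusted p = 3.3e-17) with N-Tri, and -1.03 to -1.33 with the other mixtures of batch 2. In batch 1 it fell by 0.60 with CKI, 0.43 with N-OmtOspc, 1.27 with N-MacOmtOspc, 1.13 with OmtOspc and 1.04 with MacOmtOspc. At 24 h it fell by 0.88 (SE 0.16) with CKI, 0.64 with N-MacOmtOspc and 0.52 with OmtOspc, but the OmtOspc call was lost without any of 5 of its 6 libraries (-0.45 to -0.55). It was -0.36 and -0.41 with N-OmtOspc and MacOmtOspc, neither called. Both were called in the fit of all 54 libraries (-0.38 and -0.41), and MacOmtOspc also in the fit of only the 6 libraries compared (-0.41). The MacOmtOspc libraries, at 32.0, 33.6 and 34.7 CPM, lay below the untreated ones at 44.6, 45.4 and 43.1 CPM. Without N-OmtOspc replicate 3, at 44.6 CPM beside 28.0 and 28.2 CPM in the other two, the N-OmtOspc value was -0.61 and called.

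SHMT2, the mitochondrial enzyme, split the mixtures. At 48 h in batch 1 it lay at 216, 209 and 219 CPM in untreated cells, at 137, 132 and 131 CPM with CKI, at 96.9, 98.0 and 96.0 CPM with N-OmtOspc and at 348, 347 and 342 CPM with OmtOspc. These 4 groups did not overlap. On the log2 scale SHMT2 changed by -0.69 (SE 0.07, adjusted p = 3.6e-08 by edgeR) with CKI, -1.12 (SE 0.07, adjusted p = 2.4e-12) with N-OmtOspc and 0.68 (SE 0.07, adjusted p = 2.5e-08) with OmtOspc. SHMT2 rose by 0.61 with MacOmtOspc and was at 0.05 with N-MacOmtOspc, not called. In batch 2 it fell with all 5 treatments, by 1.00 with CKI and 1.08 with N-Omt, at 119 to 125 and 107 to 126 CPM beside 207 to 279 CPM untreated, and by 0.24 to 0.46 with N-Mac, N-Nme and N-Tri. The N-Nme call was lost without N-Nme replicate 2 (-0.19) or untreated replicate 3 (-0.14). At 24 h it rose by 0.36 with N-MacOmtOspc, 0.44 with OmtOspc and 0.58 with MacOmtOspc, and fell by 0.38 with N-OmtOspc and 0.32 with CKI. The 24 h CKI call was lost when any of 5 of the 6 libraries was left out (-0.26 to -0.34).

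MTHFD2, which oxidises the one-carbon unit in mitochondria, fell with CKI at each time and rose with the mixtures at 48 h. In batch 2 it lay at 60.5, 52.3 and 66.6 CPM in untreated cells, at 31.2, 35.8 and 34.6 CPM with CKI and at 91.5, 91.1 and 94.3 CPM with N-Nme. All 12 libraries of the 4 mixtures were above all untreated libraries and the CKI libraries were below them. MTHFD2 changed by -0.82 (SE 0.07, adjusted p = 1.9e-12 by edgeR) with CKI and by 0.61 (SE 0.06, adjusted p = 1.9e-10) with N-Nme on the log2 scale, and by 0.48 to 0.60 with the other mixtures. In batch 1 at 48 h it was -0.50 with CKI and 0.31, 0.98, 0.66 and 0.65 with N-OmtOspc, N-MacOmtOspc, OmtOspc and MacOmtOspc. At 24 h it fell by 0.36 with CKI and rose by 0.63 to 0.69 with the mixtures other than N-OmtOspc, where it was 0.01. ALDH1L2, which returns folate to its free form in mitochondria, had 3 to 19 counts a library. It was left out of the fit of the 24 h libraries, was called in 0 of the comparisons it entered and also had 0 values at an unadjusted p under 0.05 (edgeR), with 95% intervals such as -0.79 to 0.69 for CKI in batch 1. ALDH1L2 overlaps C12orf45 on the other strand, and the strand setting of the counting was not given in the sources used here.

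ASNS rose with every mixture at both times and was not called with CKI. At 48 h in batch 1 it lay at 2.33, 1.40 and 1.63 CPM in untreated cells, at 1.32, 2.28 and 2.02 CPM with CKI and at 8.47, 6.78 and 6.93 CPM with N-MacOmtOspc. CKI overlapped the untreated libraries and the mixture lay well above both. The log2 fold change was 0.07 (SE 0.23, 95% interval -0.40 to 0.54) with CKI and 2.04 (SE 0.19, adjusted p = 3.2e-09 by edgeR) with N-MacOmtOspc. It was 1.52 with N-OmtOspc and 1.67 with both OmtOspc and MacOmtOspc. In batch 2 the untreated libraries were spread, at 3.42, 1.66 and 3.71 CPM, beside 2.79, 2.66 and 2.49 CPM with CKI. There the change with CKI was -0.15 (SE 0.21), and -0.43 and called without untreated replicate 2. N-Omt gave 7.99, 8.03 and 7.80 CPM and a rise of 1.43 (SE 0.17), and N-Mac, N-Nme and N-Tri rises of 1.05, 1.10 and 1.25. At 24 h the rises were 1.96, 1.65 and 1.49 with N-MacOmtOspc, OmtOspc and MacOmtOspc. With N-OmtOspc the rise was 0.87, not called without untreated replicate 2 (0.71) or N-OmtOspc replicate 3 (0.71). ASNS had only 17 to 195 counts a library. The table also holds CZ1P-ASNS, a read-through gene over the same exons, at 4 to 45 counts, and how reads shared by both genes were counted was not given in the sources used here, so the level of ASNS is uncertain.

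SLC3A2, the heavy chain of the transporter, had the largest rise among the members. At 48 h in batch 1 it lay at 289, 302 and 296 CPM in untreated cells, at 264, 252 and 229 CPM with CKI, at 1619, 1591 and 1585 CPM with N-OmtOspc and at 2024, 2193 and 1883 CPM with N-MacOmtOspc. The mixtures' libraries lay several times above the others. The rise was 5.49-fold with N-OmtOspc (log2 2.46, SE 0.07) and 6.87-fold with N-MacOmtOspc (log2 2.78, SE 0.07), with adjusted p = 5.3e-18 and 6.7e-19 by edgeR. OmtOspc and MacOmtOspc raised it by 1.63 and 1.25. CKI lowered it by 0.25 in batch 1 and 0.34 in batch 2, where the call was lost without untreated replicate 3 (-0.10), the highest at 534 CPM beside 391 and 301 CPM. Under a single fit of all 54 libraries neither CKI value was called, nor was the rise of 0.34 with N-Mac in batch 2. In batch 2 N-Omt raised SLC3A2 by 1.39, at 1075, 1051 and 1082 CPM, N-Nme by 0.83 and N-Tri by 0.56. At 24 h it rose by 1.97 with N-OmtOspc and 2.16 with N-MacOmtOspc, whose replicate 2 lay at 683 CPM beside 1822 and 1754 CPM. With CKI, OmtOspc and MacOmtOspc at 24 h it was 0.54, 0.39 and 0.55, not called, but called in all 3 without the 3 libraries that lack a sample number (0.53, 0.46 and 0.55).

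SLC7A5, the light chain, fell with all 5 treatments of batch 2, whereas SLC3A2 fell with CKI and rose with the 4 mixtures there. It lay at 598, 536 and 625 CPM in untreated cells, at 449, 424 and 451 CPM with CKI, at 263, 267 and 246 CPM with N-Mac and at 417, 389 and 395 CPM with N-Omt. Every treated library of batch 2 was below the untreated ones. The log2 fold change was -0.41 (SE 0.05, adjusted p = 6.5e-08 by edgeR) with CKI, -1.17 with N-Mac, -1.18 with N-Nme, -0.55 with N-Omt and -0.97 with N-Tri. In batch 1 at 48 h SLC7A5 fell by 0.69 (SE 0.12) with CKI, at 466, 475 and 473 CPM beside 737, 732 and 819 CPM untreated. With the mixtures there it was between -0.14 and 0.25, none called. Other settings called the value for N-OmtOspc (0.22 to 0.33), and a fit of only the 6 libraries compared called that for OmtOspc (-0.13). With N-MacOmtOspc SLC7A5 was -0.03, and -0.28 and called without replicate 2, which lay at 982 CPM beside 680 and 576 CPM. At 24 h it rose with N-OmtOspc (0.36, SE 0.09), while CKI gave 0.00 (95% interval -0.18 to 0.19). Scaled by library totals alone that rise was 0.05 and not called. With N-MacOmtOspc at 24 h SLC7A5 was -0.20, not called by edgeR but called by DESeq2. Those libraries, at 696, 668 and 698 CPM, lay below the untreated ones at 794, 771 and 814 CPM. Part of the reads of SLC7A5 could be shared with the pseudogene SLC7A5P2, which had 29 to 249 counts a library.

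**Figure D2:**
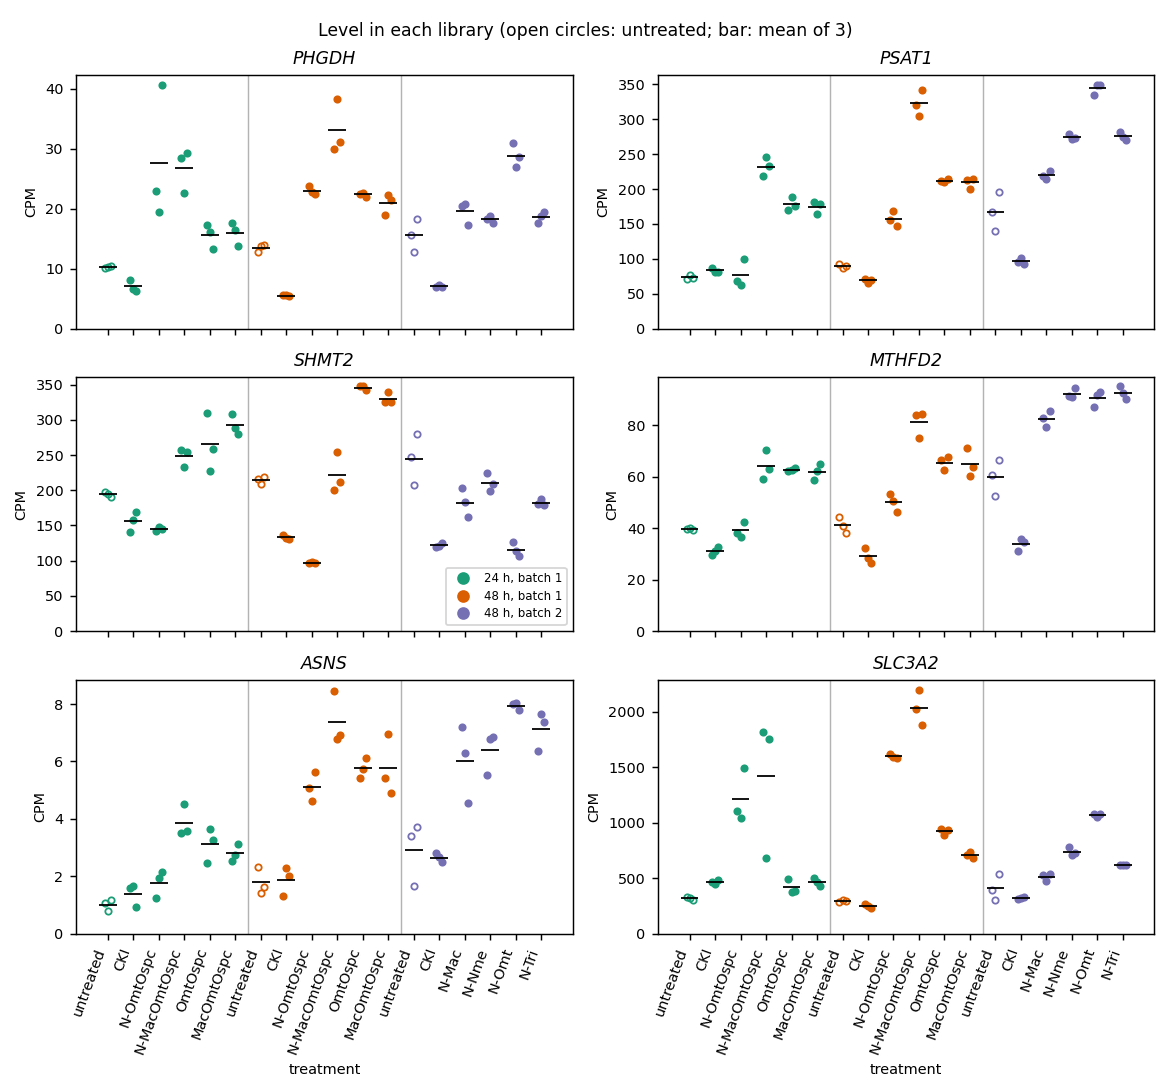
CPM (linear axes from 0) of 6 genes in each of the 54 libraries, by treatment, with colours for the 3 combinations of time and batch, open circles for untreated cells and bars for means of 3. SLC3A2 reached 2193 CPM with N-MacOmtOspc at 48 h beside 289 to 302 CPM untreated, and SHMT2 lay lowest with N-OmtOspc at 48 h (96.0 to 98.0 CPM) and highest with OmtOspc (342 to 348 CPM).

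The mixtures were then set against CKI directly, which tests their difference. At 48 h in batch 2, N-Mac against CKI had 6 members higher (35.1% of all genes) and 2 lower (34.3%), N-Nme 6 higher (35.8%) and 2 lower (35.7%), N-Omt 5 higher (37.1%) and 2 lower (39.2%), and N-Tri 6 higher (34.5%) and 2 lower (36.9%). The 4 comparisons share the 3 CKI libraries. ASNS, PHGDH, PSAT1, MTHFD2 and SLC3A2 were higher than with CKI in each, and SHMT1 and SLC7A5 were lower in each. PHGDH was higher by 1.48 with N-Mac, 1.34 with N-Nme, 2.03 with N-Omt and 1.36 with N-Tri, which are 2.78-, 2.54-, 4.08- and 2.57-fold. MTHFD2 was higher by 1.29, 1.42, 1.42 and 1.41, so that its differences were closer together than those of PHGDH. SHMT2 was higher by 0.59, 0.77 and 0.54 with N-Mac, N-Nme and N-Tri. With N-Omt it differed from CKI by -0.08 (95% interval -0.24 to 0.09, adjusted p = 0.393 by edgeR), so that a difference larger than this interval was not seen. SLC7A5 was lower by 0.76, 0.77 and 0.56 with N-Mac, N-Nme and N-Tri and by 0.14 with N-Omt, whose call was lost without any of 4 of the 6 libraries (-0.12 to -0.13). PSPH was within 0.16 of CKI with all 4, not called. For N-Nme it was called without replicate 2 of that mixture (0.19) and in a fit of only the 6 libraries compared (0.15). For N-Tri it was called without replicate 3 of that mixture (0.22). The N-Tri value was also called with RLE size factors, a looser filter, DESeq2 or only the 6 libraries compared (0.16 to 0.18). The mixtures of batch 2 were not tested against each other.

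**Figure D3:**
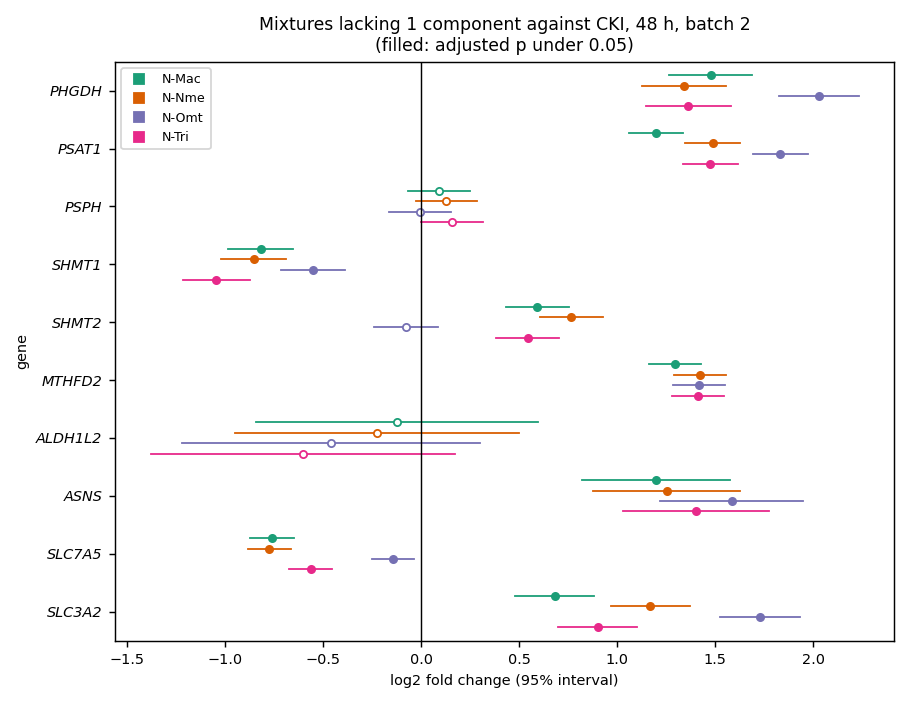
Log2 fold change (points) with its 95% interval (lines) of each gene with the 4 mixtures lacking 1 compound against CKI at 48 h in batch 2, filled at adjusted p under 0.05. PHGDH, PSAT1, MTHFD2, ASNS and SLC3A2 lie right of 0 with all 4 mixtures, SHMT1 and SLC7A5 lie left of it, and the intervals of ALDH1L2 are the widest.

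In batch 1 at 48 h, N-OmtOspc against CKI had 6 members higher (36.0%) and 2 lower (37.1%), and N-MacOmtOspc had 8 higher (33.1%) and 1 lower (34.1%). SLC3A2 was 6.53-fold and 8.17-fold higher than with CKI (log2 2.71 and 3.03, SE 0.07 each), and PHGDH 4.24-fold and 6.00-fold higher (log2 2.09 and 2.58, SE 0.10 each). SHMT2 was lower than with CKI in N-OmtOspc (-0.44, SE 0.07) and higher in N-MacOmtOspc (0.74, SE 0.07). PSPH was lower by 0.24 in N-OmtOspc and higher by 0.26 in N-MacOmtOspc, and each call was lost without replicate 3 of the mixture (-0.14 and 0.18). At 24 h, N-OmtOspc against CKI had 5 members higher (29.2%) and 0 lower (29.5%). Scaled by library totals alone it had 2 higher and 3 lower, with the median of all genes moved by -0.35. N-MacOmtOspc had 7 higher (17.6%) and 0 lower (18.1%). PHGDH was 4.06-fold and 3.82-fold higher than with CKI at 24 h, while ASNS and PSAT1 were called with N-MacOmtOspc only (1.47 and 1.48). In N-OmtOspc they lay 0.38 and -0.07 from CKI, neither called, and PSAT1 was -0.29 and called without N-OmtOspc replicate 3. SHMT1 was among the 5 higher in N-OmtOspc, a call lost without CKI replicate 1 (0.40) or N-OmtOspc replicate 3 (0.27).

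Macrozamin is the compound in which N-MacOmtOspc differs from N-OmtOspc and MacOmtOspc from OmtOspc. N-MacOmtOspc lacks it and MacOmtOspc holds it, so the first comparison takes macrozamin away and the second adds it. At 48 h, N-MacOmtOspc against N-OmtOspc had 7 members higher (25.9%) and 2 lower (25.1%), while the 24 h libraries had 5 higher (23.8%) and 1 lower (23.8%). At 48 h SHMT2 was higher by 1.17 (SE 0.07, adjusted p = 3.8e-11 by edgeR), PSAT1 by 1.01, MTHFD2 by 0.67, ASNS by 0.52, PHGDH and PSPH by 0.50 and SLC3A2 by 0.32. SHMT1 was lower by 0.84 and SLC7A5 by 0.29 (adjusted p = 0.04995), a call lost without any of 5 of the 6 libraries (-0.13 to -0.32). The ASNS call was lost without N-OmtOspc replicate 2 (0.45) or N-MacOmtOspc replicate 1 (0.40). At 24 h the members higher in N-MacOmtOspc were PSAT1 (1.56), ASNS (1.09), SHMT2 (0.74), PSPH (0.68) and MTHFD2 (0.68), and SLC7A5 was lower (-0.57). SLC3A2 differed by 0.19, not called, and by 0.53 and called without N-MacOmtOspc replicate 2. Between the mixtures of only 2 and 3 compounds, adding macrozamin went with few calls. At 24 h, MacOmtOspc against OmtOspc had 0 of 9 members called, with 0.00% of all genes called by edgeR, 0 members at an unadjusted p under 0.05 and 0 by DESeq2. At 48 h it had 0 higher (1.46%) and 1 lower (0.522%), SLC3A2 at 707, 738 and 677 CPM against 941, 890 and 938 CPM, a change of -0.38 (SE 0.07, adjusted p = 0.0033), not called in the fit of all 54 libraries (adjusted p = 0.650). For PSAT1 at 48 h the 95% interval of the difference was -0.15 to 0.12, for SHMT2 -0.21 to 0.08 and for ASNS -0.34 to 0.34. For SLC3A2 at 48 h, 0.32 on taking macrozamin away and -0.38 on adding it both mean a lower level where macrozamin was present. Neither was called in the fit of all 54 libraries. Whether the effect of macrozamin differed between the 2 backgrounds was not tested.

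**Figure D4:**
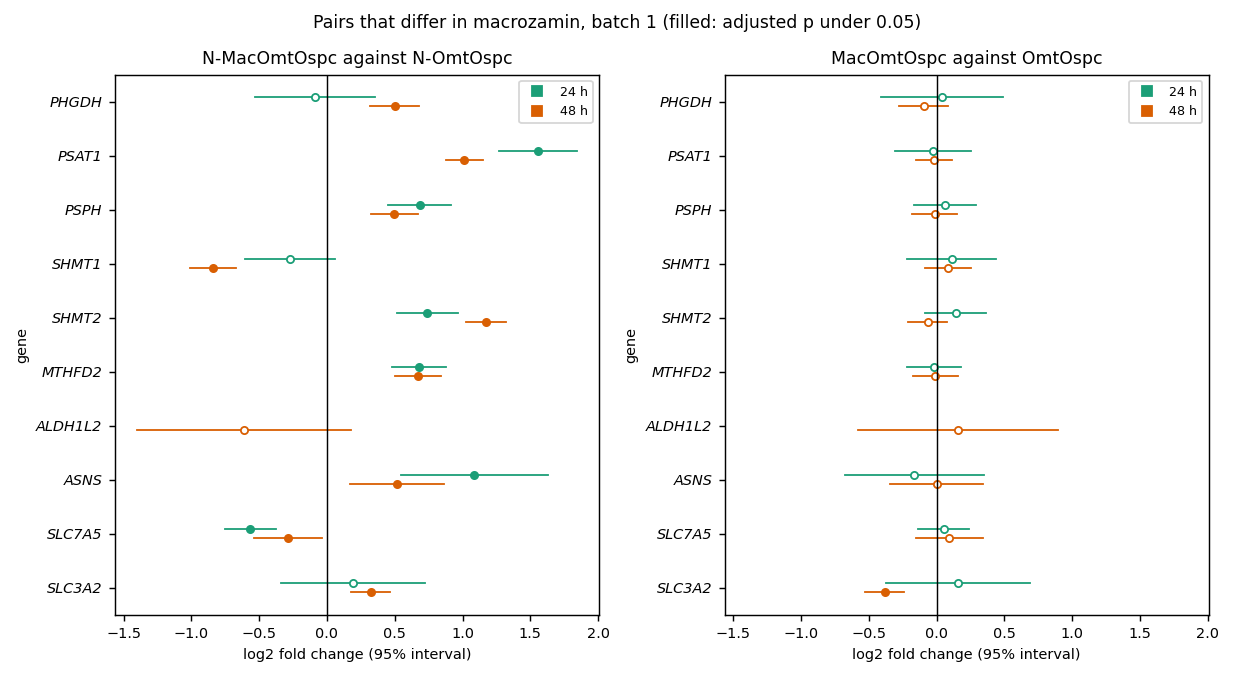
Log2 fold change with its 95% interval for the 2 pairs of mixtures that differ in macrozamin, at 24 and 48 h in batch 1, filled at adjusted p under 0.05. The left comparison takes macrozamin away and the right one adds it. The mixtures without oxymatrine and oxysophocarpine (left) differ in most genes, up to 1.56 for PSAT1 at 24 h, while on the right SLC3A2 at 48 h (-0.38) is the filled point.

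The size of the response was compared between times within batch 1 by interaction terms. For N-OmtOspc 5 members differed between 48 and 24 h, 2 with a higher effect at 48 h (15.5% of all genes) and 3 with a lower one (18.7%). For CKI 0 were higher (0.177%) and 1 lower (0.214%), for N-MacOmtOspc 0 were higher (2.35%) and 2 lower (5.00%), and for OmtOspc 1 was higher (3.23%) and 1 lower (4.83%). For MacOmtOspc 0 were called in either direction (2.59% of all genes) by edgeR, with 2 members at an unadjusted p under 0.05 and 1 called by DESeq2. With OmtOspc, SLC3A2 was 0.39 above untreated cells at 24 h and 1.63 at 48 h, a difference of 1.26 (SE 0.27, adjusted p = 0.0029 by edgeR), and with N-OmtOspc the difference was 0.52 (adjusted p = 0.141). Without the 3 libraries that lack a sample number the latter was called (0.51), as were those for CKI (-0.77) and MacOmtOspc (0.69), and without N-OmtOspc replicate 3 at 24 h it was 0.68 and called. Whether OmtOspc and N-OmtOspc differed in time course was not tested. Between the batches, the effect of CKI at 48 h differed in 1 member upward (6.58%) and 2 downward (7.20%).

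Other genes of the routes moved less uniformly. With CKI at 48 h in both batches, 10 of 17 folate and one-carbon genes tested were lower and 4 higher (median log2 fold change -0.24, beside 0.01 over all genes, of which 34.4% were lower and 36.3% higher). ALDH1L1, the cytosolic counterpart of ALDH1L2, fell by 1.5 (SE 0.16, adjusted p = 2.6e-07 by edgeR) and TYMS, which makes thymidylate from a folate one-carbon unit, by 1.18 (adjusted p = 3.1e-12). Among 15 genes that use serine or glycine, 5 were higher, a share near that of all genes, and 3 lower (median -0.04). The largest rises were those of GCLM and GCLC, the subunits of the first enzyme of glutathione synthesis, which rose by 1.5 and 1.14. Of 16 other amino acid synthesis genes 10 were lower and 1 higher (median -0.25), and of 16 other amino acid transporters 9 were lower and 3 higher (median -0.29). With N-Omt the transporters had 12 higher and 3 lower (median 0.37), and with N-MacOmtOspc at 48 h 9 higher and 3 lower (0.66). Of the folate genes 3 were higher and 8 lower with N-Omt, and 6 higher and 9 lower with N-MacOmtOspc. Of all genes 38.4% were higher and 39.9% lower with N-Omt, and 35.8% and 35.3% with N-MacOmtOspc.

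The regulators of the amino acid response were measured in the same libraries. ATF4 fell by 0.37 (SE 0.04, adjusted p = 8.8e-07 by edgeR) with CKI at 48 h in both batches and by 0.48 at 24 h. At 24 h, TRIB3, DDIT3 and CEBPB were at -0.19, 0.42 and 0.73 with CKI, none called. There 4 of the 17 regulators were higher and 2 lower (median 0.09), where 15.3% of all genes were higher and 14.8% lower. ATF4 rose by 0.83, 0.95, 0.56 and 0.53 with N-OmtOspc, N-MacOmtOspc, OmtOspc and MacOmtOspc at 48 h, and by 0.21, 0.37 and 0.58 with N-Mac, N-Nme and N-Omt. With N-Tri it was 0.13 and not called. TRIB3, a target and inhibitor of ATF4, fell by 0.87 with CKI at 48 h, by 0.49 in batch 1 and 1.27 in batch 2, and rose by 0.65 to 2.60 with the 8 mixtures at 48 h. DDIT3, which encodes CHOP, fell by 0.59 with CKI, where batch 1 alone gave -0.26 and no call, and rose by 1.32 to 3.20. CEBPB went up in both, by 0.38 with CKI and by 1.21 to 2.76 with the mixtures. Of the 17 regulators 10 were lower and 4 higher with CKI at 48 h in both batches (median -0.37), where 34.4% of all genes were lower and 36.3% higher, and the CKI effect was lower in batch 2 than in batch 1 for 7 and higher for 0 (7.20% and 6.58% of all genes). With each mixture at 48 h 12 to 14 were higher, where 25.7% to 38.4% of all genes were. ATF4 is controlled largely at translation, which RNA counts do not measure.

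Leaving out the 10 members and genes that averaged under 10 CPM, those whose pattern was most like that of ASNS, by Pearson r of log2 CPM relative to untreated cells over the 54 libraries, were ARHGEF2 (0.90), IL24 (0.89), PPP1R15A (0.89), XPOT (0.89) and CEBPG (0.89). For the mean of the 10 members they were TRIB3 (0.94), SH2D5 (0.93), ADM2 (0.92), CHAC1 (0.91) and XBP1 (0.90). Among the members themselves the measure was 0.92 for PSAT1 with MTHFD2, 0.90 for ASNS with PSAT1, 0.86 for PSPH with SHMT2 and 0.81 for PHGDH with SLC3A2. It was 0.27 for the chains SLC7A5 and SLC3A2, 0.04 for SHMT1 with SHMT2 and -0.56 for SHMT1 with ASNS. These are descriptions: libraries of a group share a treatment, and those of a time and batch share their untreated libraries.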

How the data were processed

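RNA libraries of MDA-MB-231 cells, polyA-selected and sequenced as paired ends, were processed by the submitters, whose notes name FastQC 0.11.4, Trim Galore 0.3.7, STAR 2.5.3a, Subread 1.5.2 with featureCounts, edgeR 3.22.3 and hg19. The annotation version, strand setting and handling of overlapping genes are not given in the sources used here. The authors deposited raw counts per gene, which were used as deposited. The genes and gene lists were chosen with earlier results of these data known. Always named were the 10 members, the 4 regulators ATF4, DDIT3, TRIB3 and CEBPB and, from the related lists, the 2 genes that rose and the 2 that fell most with CKI at 48 h. Other regulators and transporters are given as counts.

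Low genes were removed with filterByExpr, libraries were scaled by TMM, and genes were tested with edgeR 4.0.16 (glmQLFit, glmQLFTest) in 1 fit of 18 libraries for each time and batch, 36 libraries for time differences and 12 for CKI in both batches. 15191, 15513 and 15115 genes were tested at 24 h, at 48 h in batch 1 and at 48 h in batch 2, and the biological coefficient of variation was 0.175, 0.0763 and 0.0480, so differences at 24 h are less precise. P-values were adjusted by the Benjamini-Hochberg method over all genes tested. The design text calls the replicates biological. An exact permutation test of 3 against 3 libraries cannot give a p under 0.1 and was not used. Levels are CPM after TMM scaling over all 54 libraries, given for each of 3 libraries, and were not divided by gene length, so levels of different genes are not compared. Alternatives were RLE size factors, library totals alone, a looser filter, DESeq2 1.42.0, a replicate block, other sets of libraries in the fit, no batch term, and leaving out each library or the 3 unnumbered ones. Within each of the 18 groups, no 2 libraries agreed within sampling noise, and libraries of different groups were not compared in this way. The scripts were tested on simulated data. Promoters were read from RefSeq tables of GRCh38.p14, and no coordinates of the counted genes are given.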

Additional observations from a re-analysis of the deposited data

Results flagged for a closer look

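The effect of a treatment against untreated cells differed between times or batches, by the interaction test of edgeR's quasi-likelihood fit, for the following genes. Values are the log2 effect at 48 h less that at 24 h. With CKI it was -0.69 for SLC7A5 (adjusted p = 0.0430), with 3 CKI libraries below all 3 untreated ones at 48 h and overlapping them at 24 h. With N-OmtOspc it was -0.71 for SHMT2 (adjusted p = 7.7e-05), 0.76 for PSAT1 (adjusted p = 0.0002), -0.66 for PHGDH (adjusted p = 0.0322), 0.32 for MTHFD2 (adjusted p = 0.0447) and -0.35 for PSPH (adjusted p = 0.0454). The PHGDH difference was -0.29 and not called without N-OmtOspc replicate 3 at 24 h. With N-MacOmtOspc it was -0.55 for PSPH (adjusted p = 0.0105) and -0.62 for SHMT1 (adjusted p = 0.0278). With OmtOspc it was 1.26 for SLC3A2 (adjusted p = 0.0029) and -0.58 for SHMT1 (adjusted p = 0.0369). The effect of CKI at 48 h in batch 2 less that in batch 1 was -0.41 for PSAT1 (adjusted p = 0.0186), -0.30 for SHMT2 (adjusted p = 0.0424) and 0.30 for SLC7A5 (adjusted p = 0.0145), while each of these 3 genes fell in both batches. Without single libraries, the calls for SLC7A5 with CKI over time, SHMT2 between batches, and MTHFD2, PSPH and PHGDH with N-OmtOspc were lost for 11, 11, 9, 9 and 8 of the 12 libraries, SHMT1 with OmtOspc and N-MacOmtOspc for 10 and 7, and PSAT1 between batches for 2.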

How the results depend on the processing

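Of 2314 values of single genes recomputed under alternatives other than leaving out a library, 2209 kept their direction and their side of the threshold, as did 223 of 239 counts within 1.5 times. In all sections, counts under the alternatives are given without the share of all genes called. They show how calls changed and not how the members compare with all genes. Counts of members called for a difference between times changed most. For CKI the count of 1 became 0 with the looser filter or the replicate block, 2 with DESeq2 and 2 without the 3 unnumbered libraries. For MacOmtOspc 0 became 1 with RLE size factors or DESeq2 and 2 without the 3 unnumbered libraries, for N-MacOmtOspc 2 became 4 without them, and with the looser filter N-OmtOspc went from 5 to 3 and OmtOspc from 2 to 1. At 24 h, fits of all 54 or of only 6 libraries called 5 members for CKI and 8 for MacOmtOspc, and the fit of 6 called 3 for N-OmtOspc against CKI. MacOmtOspc against OmtOspc at 48 h had 0 in the fit of 54, in which PHGDH with N-Mac, N-Nme and N-Tri, SLC3A2 with N-Mac and SLC3A2 for N-MacOmtOspc against N-OmtOspc at 48 h were also not called. Leaving out 1 library gave 0 to 1 for the CKI time difference, 2 to 4 for N-OmtOspc, 1 to 3 for N-MacOmtOspc, 1 to 2 for OmtOspc and 1 to 4 for the CKI batch difference. Fits without 1 library also tested other numbers of genes, and the causes of these changes were not tested.

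Scaled by library totals alone, 4 values at 24 h turned to the other direction: against untreated cells PSPH (-0.30) and MTHFD2 (-0.29) with N-OmtOspc, and against CKI PSPH (-0.28) and SLC7A5 (-0.0018). This scaling moved the median of all genes by -0.31 and -0.35 there, by 0.33 for N-MacOmtOspc against N-OmtOspc at 24 h, by 0.35 for the N-OmtOspc time difference, by 0.13 for OmtOspc at 48 h, and by -0.14 and -0.13 for N-MacOmtOspc against CKI and against N-OmtOspc at 48 h. The N-OmtOspc time difference then had 4 members higher and 1 lower, that of OmtOspc 2 and 0, N-MacOmtOspc against CKI at 24 h 7 and 1, and CKI at 48 h in both batches 0 and 7. Without a batch term PSPH and SLC3A2 were not called for CKI at 48 h in both batches. The main fits did not pair samples by replicate number, and whether these numbers mark paired samples was not settled. In each time and batch, 1 of 15 pairs of groups had all same-numbered correlations above 0.1. The correlations ranged from -0.79 to 0.80 at 24 h. At 48 h they ranged from -0.39 to 0.35 in batch 1 and from -0.19 to 0.30 in batch 2. Sample and replicate numbers do not all match for CKI at 24 h, so these correlations cannot decide the question. With the replicate block 2 calls changed, SLC7A5 for the CKI time difference (-0.69, adjusted p = 0.0560 by edgeR) and SHMT1 with N-OmtOspc at 24 h (-0.38, adjusted p = 0.0383). ALDH1L2 and ASNS are limited by their low counts.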
